A study of Homo sapiens with 24 samples.

Results

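The pro-apoptotic BCL2 family was followed as 10 genes, taken by symbol from a table of 30373 genes and transcripts, and all 10 were found. BAX and BAK1 encode the pore-forming effectors, and the other 8 (BCL2L11, BMF, BBC3, PMAIP1, BID, BAD, BIK and HRK) encode BH3-only proteins. RNA was measured by poly-A sequencing in 24 libraries of 4 established human cell lines, of which SKM-1, MV-4-11 and Kasumi-1 come from acute myeloid leukaemia (AML) while NCI-H1299 comes from non-small cell lung cancer. Each line was grown in RPMI-1640 with fetal bovine serum and exposed for 24 h to DMSO, the vehicle, to ABBV-075 at 100 nM or to ABBV-744 at 200 nM, with 2 libraries in each of the 12 groups. ABBV-075 (mivebresib) binds both bromodomains of the BET proteins, which read acetylated chromatin, and ABBV-744 is selective for the second of those domains. The doses differ, so every comparison of the compounds holds for these doses only. Nothing in the labels ties the paired libraries to separate cultures, and p-values then measure only the spread between these samples, which may be technical.

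Mitochondrial apoptosis begins when BAX and BAK1 assemble in the outer mitochondrial membrane and release cytochrome c. Guardian proteins such as BCL2, BCL2L1 (BCL-XL) and MCL1 hold the effectors and the BH3-only proteins in check through a groove that binds the BH3 helix. BIM (the product of BCL2L11), PUMA (BBC3) and cleaved BID bind all guardians and can also activate the effectors, whereas NOXA (PMAIP1), BAD, BIK, HRK and BMF bind guardians, several of them selectively. Many leukaemia cells depend on BCL2 or MCL1, which is why drugs that mimic a BH3 helix are used in AML.

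The lines carried the RNA their labels imply. The leucocyte gene PTPRC was at 18.1 FPKM or more in every AML library and at 0.178 FPKM or less in NCI-H1299, whereas the keratin gene KRT8 was at 153 FPKM or more in NCI-H1299 and at 2.29 FPKM or less elsewhere. RUNX1T1, a partner in the known Kasumi-1 fusion gene, was at 29.9 to 53.7 FPKM in Kasumi-1 and at 0.784 FPKM or less in the other lines. MS4A1 and CD3E, markers of B and T cells, did not exceed 0.156 FPKM in any library. Mitochondrial genes took 6.65% to 16.3% of the FPKM sum in 23 libraries and 22.3% in SKM-1 DMSO replicate 2. Read depth is unknown because FPKM values carry no read counts, and counting intervals were therefore not given.

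What the 10 genes share outside the rule that chose them is a short coding stretch. It encodes the BH3 core, a leucine, any 3 residues, a glycine, alanine or serine, and an aspartate. The stretches are shown because this helix is how all members bind the guardians. They were read from GENCODE 29 transcripts (GRCh38, coding strand, 45 bases, 5′ to 3′), and capitals mark the codon of the leucine and the codons of the small residue and the aspartate.
BCL2L11: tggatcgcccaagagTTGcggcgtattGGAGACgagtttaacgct
BMF: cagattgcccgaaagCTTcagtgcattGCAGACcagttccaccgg
BBC3: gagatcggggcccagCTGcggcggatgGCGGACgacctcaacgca
PMAIP1: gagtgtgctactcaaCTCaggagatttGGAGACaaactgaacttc
BID: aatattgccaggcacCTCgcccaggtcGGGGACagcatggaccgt
BAD: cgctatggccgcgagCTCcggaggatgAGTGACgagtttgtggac
BIK: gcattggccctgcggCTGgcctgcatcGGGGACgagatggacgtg
HRK: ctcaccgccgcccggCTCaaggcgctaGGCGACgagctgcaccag
BAX: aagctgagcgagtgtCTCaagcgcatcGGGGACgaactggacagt
BAK1: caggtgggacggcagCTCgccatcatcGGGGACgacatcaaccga
The pattern occurred in 10 of 10 members and, being loose, in 35% of 19524 coding genes, so it marks no family on its own. BID matched in 2 places, and the one printed is the known BH3. Each stretch lies within 1 coding exon, on the plus strand for BCL2L11 (chr2:111150088-111150132, exon 4 of 5), PMAIP1 (chr18:59902658-59902702, exon 2 of 2), BIK (chr22:43127701-43127745, exon 3 of 5) and BAX (chr19:48955772-48955816, exon 3 of 6). On the minus strand lie those of BMF (chr15:40104195-40104239, exon 4 of 5), BBC3 (chr19:47226579-47226623, exon 3 of 4), BID (chr22:17739415-17739459, exon 4 of 6), BAD (chr11:64271622-64271666, exon 3 of 4), HRK (chr12:116881170-116881214, exon 1 of 2) and BAK1 (chr6:33575387-33575431, exon 4 of 6). BAD overlaps the opposite-strand gene GPR137 and BAK1 overlaps GGNBP1. BCL2L11 overlaps the opposite-strand RNA gene MIR4435-2HG, BMF overlaps BMF-AS1, and BBC3 and BID overlap microRNA genes. The genes overlapping BCL2L11, BMF, BBC3 and BID were not found by these symbols in the FPKM values. The strand setting of the counting is not stated, and reads of overlapping genes cannot be told apart. BAK1 also has processed pseudogenes (BAK1P1 and BAK1P2) whose reads its value may share.

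In DMSO the widest gap in FPKM was that of BAX, an effector. On the log2 scale BMF, described next, had the widest gap among the pairs of lines tested. BBC3, not tested in Kasumi-1, spanned more, with means of 20.1 FPKM in MV-4-11 and 0.371 in Kasumi-1. BAX stood at 299 and 328 FPKM in the 2 MV-4-11 libraries, against 39.3 and 31.6 in SKM-1, 68.3 and 70.2 in Kasumi-1 and 69.4 and 67.5 in NCI-H1299. The MV-4-11 libraries lay above all others, SKM-1 lay lowest, and Kasumi-1 and NCI-H1299 were not called apart (log2 difference 0.02 ± 0.20 SE, adjusted p = 0.949). BAX made up 65.6% of the summed FPKM of the 10 genes in MV-4-11, against 22.3% in SKM-1, 43.1% in Kasumi-1 and 43.3% in NCI-H1299. All differences are of log2(FPKM + 1), from 1 limma fit of all libraries, and a gene was called at a Benjamini-Hochberg adjusted p under 0.05 over all genes tested. In bulk RNA, fewer cells of a type and less RNA per cell cannot be told apart.

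BMF and BBC3, BH3-only genes induced by many stresses, were also highest in MV-4-11. BMF was at 19.3 and 21.7 FPKM there, 4.66 and 4.03 in SKM-1, 1.84 and 1.94 in Kasumi-1 and 1.12 and 1.05 in NCI-H1299, and every step of that order was called. BBC3 was at 18.1 and 22.1 FPKM in MV-4-11, 4.92 and 3.90 in SKM-1 and 3.70 and 2.88 in NCI-H1299, and the last 2 lines were not called apart (0.33 ± 0.27, adjusted p = 0.285). In Kasumi-1 BBC3 stayed below 1 FPKM in all 6 libraries and was not tested. BCL2L11 was in a narrow range in the AML lines, at 6.41 ± 0.28 FPKM (SD, n = 2) in SKM-1, 6.25 ± 0.092 in MV-4-11 and 6.65 ± 0.37 in Kasumi-1. None of those 3 pairs was called, and NCI-H1299, at 2.70 ± 0.052 FPKM, was lower than each, by 0.97 to 1.05 on the log2 scale. Without mitochondrial genes, however, limma called BCL2L11 higher in SKM-1 than in MV-4-11 (0.32, adjusted p = 0.0225).

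BIK, a BH3-only gene of the endoplasmic reticulum, split the lines into a high pair, Kasumi-1 (13.4 ± 3.0 FPKM) and MV-4-11 (12.3 ± 0.84), and a low pair, SKM-1 (2.78 ± 0.57) and NCI-H1299 (0.950 ± 0.31). SKM-1 was called above NCI-H1299 (0.96, adjusted p = 0.00293), each line of the high pair was called above each of the low pair, and the high pair was not called apart (adjusted p = 0.755). HRK was listed at 0 in all 6 MV-4-11 and all 6 Kasumi-1 libraries and stood at 1.80 ± 0.061 FPKM in SKM-1 and 1.98 ± 0.26 in NCI-H1299, a difference that was not called. BAD was highest in NCI-H1299 (29.3 ± 3.4 FPKM) and lowest in SKM-1 (8.26 ± 1.7). MV-4-11 and Kasumi-1 were not called apart in BAD (14.2 ± 3.4 and 13.9 ± 1.9, adjusted p = 0.966). The BAD calls of SKM-1 against MV-4-11 (-0.71) and Kasumi-1 (-0.69) were both lost without mitochondrial genes (-0.44 and -0.52). Both were also lost without SKM-1 DMSO replicate 2 (-0.51 and -0.50). PMAIP1 and BID were highest in SKM-1 and MV-4-11, which were not called apart in either gene. Without mitochondrial genes BID was called higher in SKM-1 than in MV-4-11 (0.40, adjusted p = 0.0127). The same difference for PMAIP1 was 0.12 and ranged from -0.41 to 0.65 over the other settings and left-out libraries. BAK1 varied least, from 13.0 ± 4.9 FPKM in SKM-1 to 24.1 ± 0.21 in NCI-H1299, and that outer pair was the only one called (SKM-1 against NCI-H1299, -0.89 ± 0.21, adjusted p = 0.00166; -0.52 without SKM-1 DMSO replicate 2).

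Between untreated lines the members called were 5 of 9 tested for SKM-1 and MV-4-11, 6 of 8 for SKM-1 and Kasumi-1, 8 of 10 for SKM-1 and NCI-H1299, 4 of 8 for MV-4-11 and Kasumi-1, 8 of 9 for MV-4-11 and NCI-H1299 and 6 of 8 for Kasumi-1 and NCI-H1299. The shares of all tested genes called in these pairs were 56.7%, 55.7%, 63.5%, 55.7%, 63.3% and 62.8%. With 8 to 10 members tested, these counts are close to the background.

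**Figure D1:**
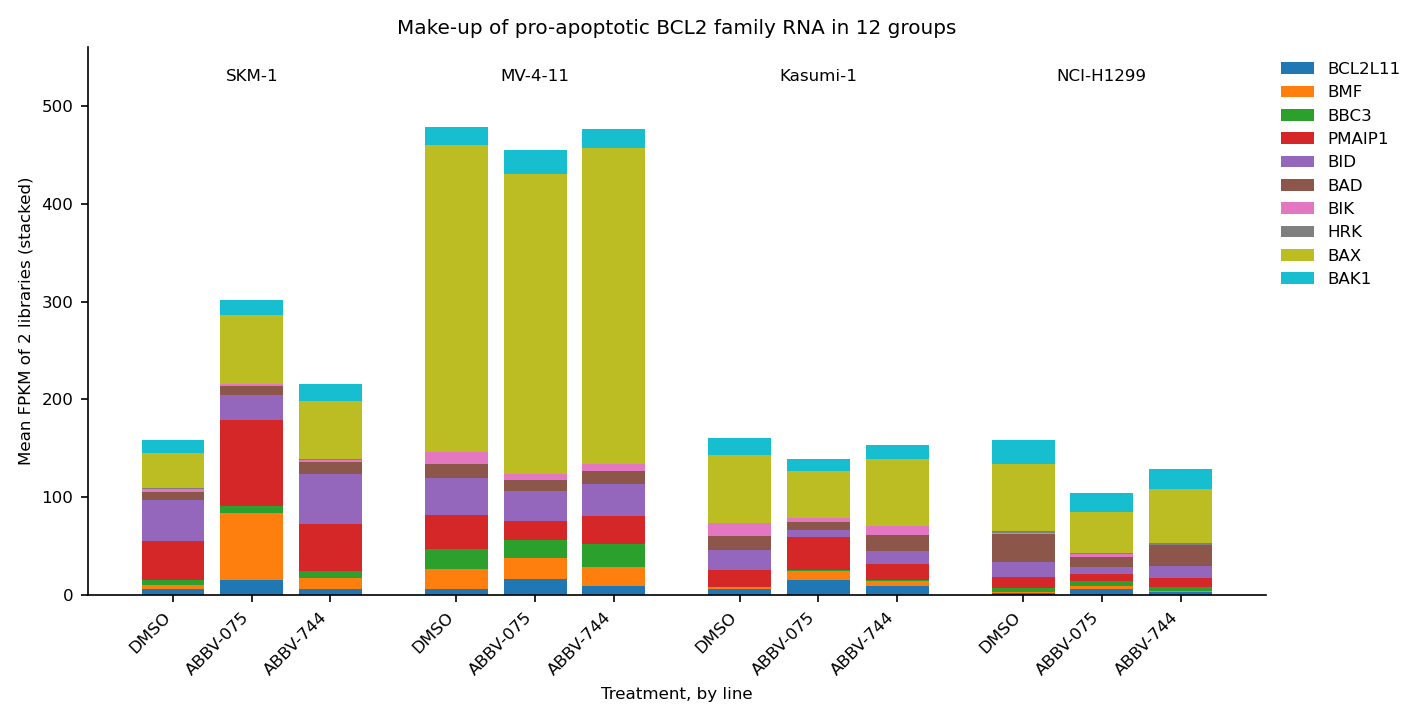
Stacked mean FPKM of the 10 genes (vertical axis) in each of the 12 groups (horizontal axis, treatments within lines, 2 libraries each). BAX fills most of every MV-4-11 bar, and BMF and PMAIP1 make the SKM-1 bar with ABBV-075 the tallest of that line.

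With ABBV-075 members were called in both directions in every line, and the shares of all genes called are given beside each count. BCL2L11 rose in 4 of 4 lines and BMF in 3, whereas BID fell in 3 lines, and BAX, BAD and BIK each fell in 2. In SKM-1, 4 of 10 tested members rose (BCL2L11, BMF, PMAIP1 and BAX), beside 32.03% of all tested genes, and 2 were called lower (BID and HRK), beside 29.2%. In MV-4-11, 1 of 9 rose (BCL2L11; all genes 20.3%) and 2 fell (PMAIP1 and BIK; all genes 22.1%). In Kasumi-1, 3 of 8 rose (BCL2L11, BMF and PMAIP1; all genes 24.7%) and 5 fell (BID, BAD, BIK, BAX and BAK1; all genes 32.6%). In NCI-H1299, 4 of 10 rose (BCL2L11, BMF, BBC3 and BIK; all genes 20.6%) and 4 fell (BID, BAD, HRK and BAX; all genes 26.5%). In SKM-1 and MV-4-11 these counts are near or below the background. The members' median log2 difference was 0.43 in SKM-1, -0.14 in MV-4-11, -0.59 in Kasumi-1 and -0.45 in NCI-H1299, beside 0.05, -0.01, -0.09 and -0.06 for all genes. HRK in SKM-1 passed the filter through its DMSO libraries alone, so its lower values with both compounds were bound to appear and its calls there are no result.

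ABBV-744 changed fewer members. In SKM-1, 2 of 10 rose (BMF and BAX; all genes 14.9%) and 1 was called lower (HRK, through the filter; all genes 12.5%). In MV-4-11, 1 of 9 rose (BCL2L11; all genes 4.61%) and 0 fell in limma (all genes 6.75%), with 1 lower at an unadjusted p under 0.05. In Kasumi-1, 2 of 8 rose (BCL2L11 and BMF; all genes 8.69%) and 1 fell (BID; all genes 14.95%). In NCI-H1299 0 members rose in limma (all genes 1.40%), with 1 higher at an unadjusted p under 0.05, and 1 of 10 fell (HRK; all genes 3.95%). Over the 4 lines, 8 of 37 tested pairs of member and line were called with ABBV-744 and 25 of 37 with ABBV-075. Both totals include HRK in SKM-1. All genes called with ABBV-744 were 3604 of 13154 in SKM-1, 1417 of 12467 in MV-4-11, 2875 of 12158 in Kasumi-1 and 687 of 12851 in NCI-H1299. With ABBV-075 they were 8058, 5285, 6967 and 6056, so ABBV-744 changed fewer genes of any kind. Both compounds share the DMSO libraries of a line.

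**Figure D2:**
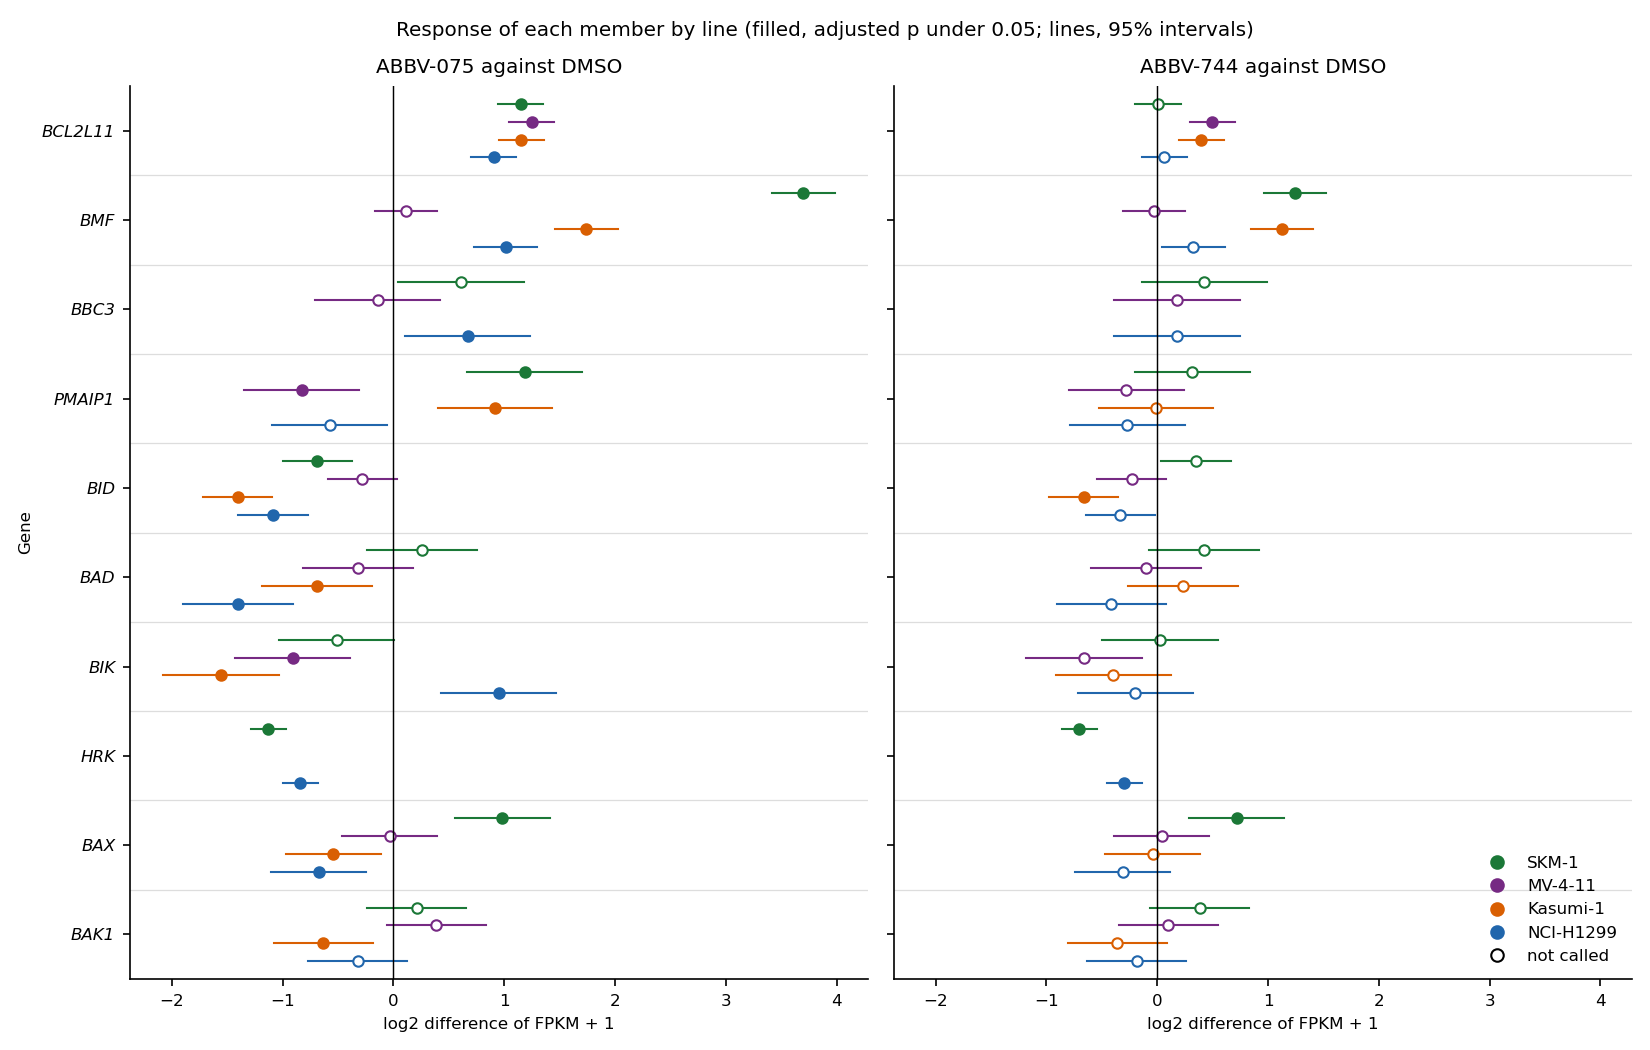
Log2 difference of FPKM + 1 against DMSO (horizontal axis) for each gene (vertical axis) in each line (colours), with ABBV-075 on the left and ABBV-744 on the right; horizontal lines are 95% intervals, filled points were called, and genes below the filter in a line have no point. BCL2L11 lies at 0.90 to 1.25 in all lines with ABBV-075, whereas BMF spreads from 0.11 to 3.70.

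BCL2L11, whose product BIM binds every guardian, responded to ABBV-075 in all 4 lines. In SKM-1 its level went from 6.61 and 6.21 FPKM in DMSO to 14.7 and 16.1 with ABBV-075, and it stood at 6.50 and 6.39 with ABBV-744. In MV-4-11 the values were 6.19 and 6.32 in DMSO, 15.8 and 16.6 with ABBV-075 and 8.85 and 9.66 with ABBV-744. In Kasumi-1 they were 6.91 and 6.40 in DMSO, 15.8 and 16.3 with ABBV-075 and 10.0 and 8.25 with ABBV-744. The ABBV-075 libraries lay above all DMSO and ABBV-744 libraries of the line in each case, and the 6 AML libraries with ABBV-075 fell between 14.7 and 16.6 FPKM. NCI-H1299 ran lower, from 2.66 and 2.73 FPKM in DMSO to 5.83 and 6.02 with ABBV-075, with 2.75 and 2.99 under ABBV-744.

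The log2 difference of BCL2L11 with ABBV-075 was 1.15, 1.25, 1.15 and 0.90 in SKM-1, MV-4-11, Kasumi-1 and NCI-H1299, each ± 0.10 (SE), with adjusted p from 5.05e-08 to 1.74e-06. A test of whether these differences vary among lines did not reach the threshold (moderated F = 2.30, adjusted p = 0.166). The widest gap was 0.34 between MV-4-11 and NCI-H1299 (95% interval 0.05 to 0.63). ABBV-744 raised BCL2L11 in MV-4-11 (0.50, adjusted p = 0.00284) and Kasumi-1 (0.40, adjusted p = 0.00716), while SKM-1 gave 0.01 (95% interval -0.20 to 0.21) and NCI-H1299 0.06 (-0.14 to 0.27). The Kasumi-1 call was lost without DMSO replicate 2 (0.35) or ABBV-744 replicate 1 (0.27) and when the line was fitted alone.

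BMF encodes a BH3-only protein held on the cytoskeleton through dynein light chain, and it gave the largest change of the family. In SKM-1 it rose from 4.66 and 4.03 FPKM in DMSO to 73.5 and 63.6 with ABBV-075 and to 11.2 and 12.1 with ABBV-744. The 3 treatments did not overlap. The log2 difference was 3.70 with ABBV-075 (adjusted p = 4.55e-12) and 1.25 with ABBV-744 (adjusted p = 6.97e-06), each ± 0.13 (SE).

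In Kasumi-1 BMF rose from 1.84 and 1.94 FPKM to 10.4 and 7.18 with ABBV-075 (1.74 on the log2 scale) and to 5.41 and 5.23 with ABBV-744 (1.13, adjusted p = 2.6e-05). In NCI-H1299 it rose from 1.12 and 1.05 FPKM to 3.21 and 3.21 with ABBV-075 (1.01, adjusted p = 1.47e-05), and stood at 1.57 and 1.66 with ABBV-744 (0.33, adjusted p = 0.217). MV-4-11, the line with the highest DMSO level, stayed in 1 range throughout, with 19.3 and 21.7 FPKM in DMSO, 21.5 and 22.996 with ABBV-075 and 19.2 and 21.1 with ABBV-744. There the log2 differences were 0.11 (95% interval -0.17 to 0.40) and -0.03 (-0.31 to 0.26), so a change of the size seen in any other line with ABBV-075 lay outside the interval. All 31 alternative settings and left-out libraries kept the BMF calls in SKM-1 and Kasumi-1 with both compounds.

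The 250 bases before the start sites of BCL2L11 and BMF are shown because these are the members that rose in most lines. They come from RefSeq (GRCh38.p14), which held 9 of the 10 members, without BIK. Capitals mark a match on either strand to the CCAAT box, to GGGCGG, known as the GC box, or to GTAAACA, known as the FOXO element. BCL2L11 is on the plus strand at chr2:111120664-111120913 and BMF on the minus strand at chr15:40108880-40109129.
BCL2L11: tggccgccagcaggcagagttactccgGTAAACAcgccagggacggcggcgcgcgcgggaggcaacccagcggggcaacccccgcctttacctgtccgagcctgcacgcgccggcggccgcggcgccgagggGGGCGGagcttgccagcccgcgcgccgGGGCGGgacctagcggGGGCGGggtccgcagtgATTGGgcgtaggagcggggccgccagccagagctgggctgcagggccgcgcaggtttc
BMF: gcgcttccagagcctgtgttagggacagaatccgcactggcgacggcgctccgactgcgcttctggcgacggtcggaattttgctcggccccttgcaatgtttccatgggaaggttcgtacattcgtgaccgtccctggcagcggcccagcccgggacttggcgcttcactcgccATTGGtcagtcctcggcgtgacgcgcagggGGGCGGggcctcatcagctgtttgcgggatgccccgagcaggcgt
The BCL2L11 window held 76.8% G or C, 34 CpG, 3 GC boxes, 1 CCAAT box and 1 FOXO element. The BMF window held 65.2% G or C, 26 CpG, 1 GC box and 1 CCAAT box. A further BMF start entry, inside the gene, had 48.8% G or C, no CpG and none of the motifs searched. Among 35116 promoter entries of the same length 42.6% held a GC box, 32% a CCAAT box and 2.98% the FOXO element, and the median G or C share was 58%. The other motifs searched were CACGTG, known as the E-box, TATAAA, known as the TATA box, TGACGTCA, known as the CRE, and TGACTCA, known as the AP-1 element. An E-box lay before BAX, BBC3 and BID (6.34% of all entries), an AP-1 element before BBC3 (4.2%), and neither a TATA box (10.7%) nor a CRE (1.65%) before any member. These are matches of letters in a window and were not tested as sites.

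**Figure D3:**
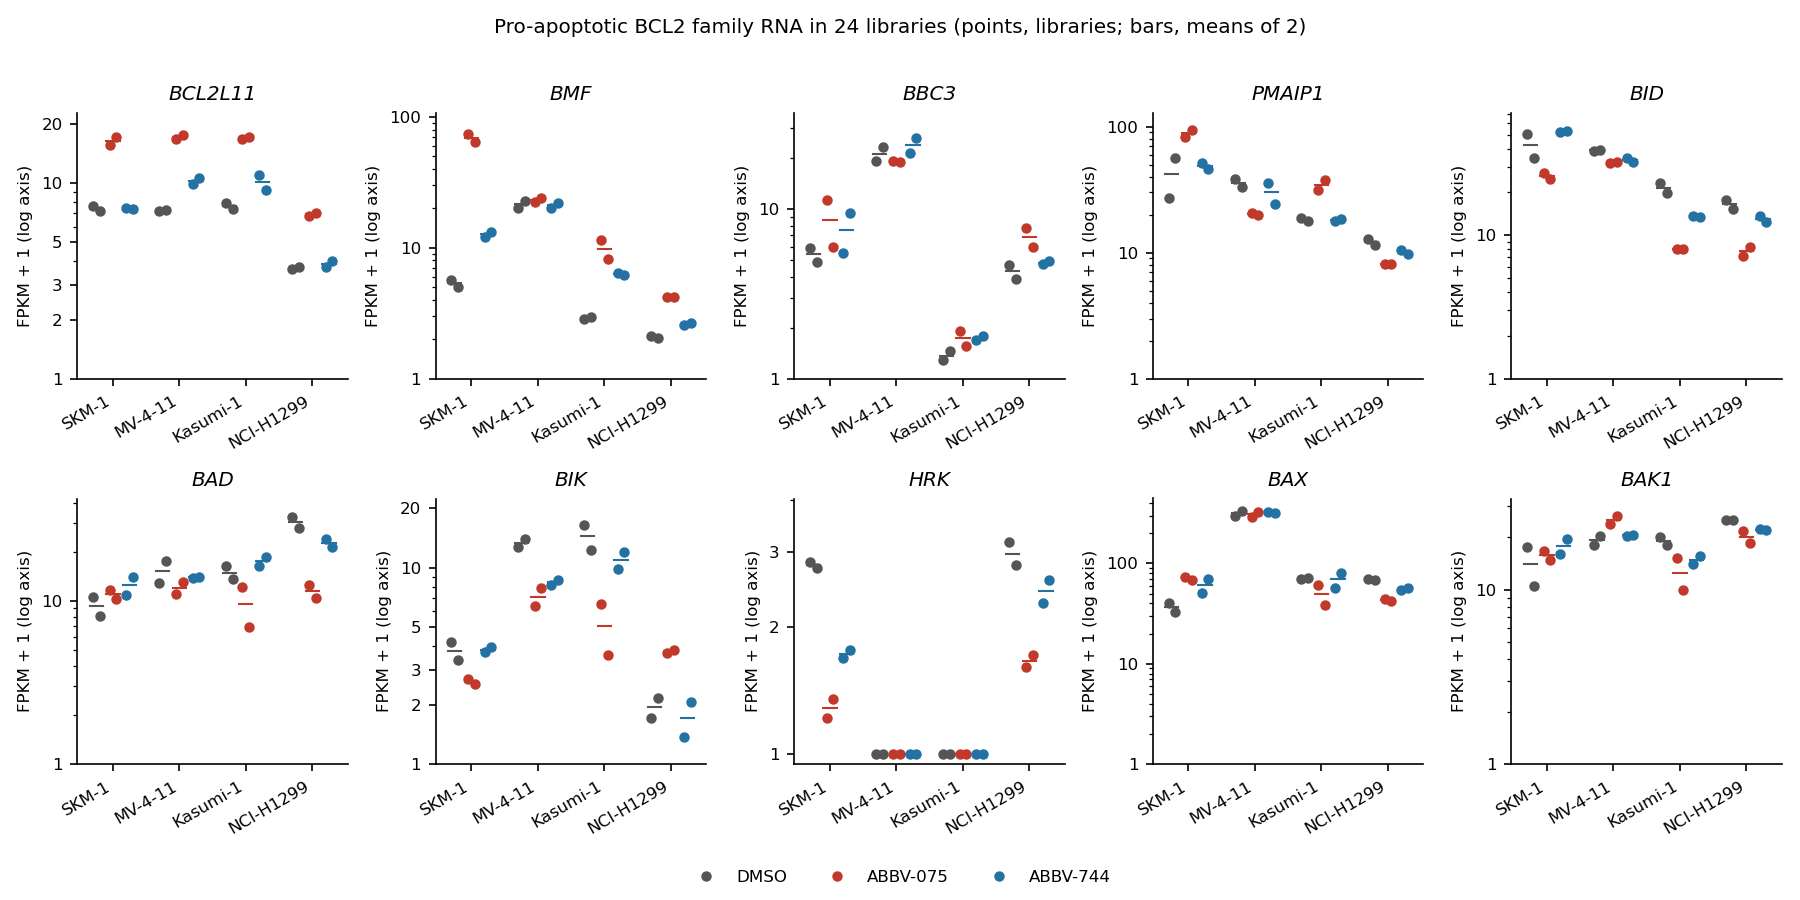
FPKM + 1 on a log axis (vertical) for each of the 10 genes in the 24 libraries, by line (horizontal) and treatment (colour); points are libraries and bars are means of 2. The ABBV-075 points of BCL2L11 lie above the DMSO points in every line, while those of PMAIP1 lie above in SKM-1 and Kasumi-1 and below in MV-4-11 and NCI-H1299.

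PMAIP1, whose product NOXA binds MCL1, moved in opposite directions between lines with ABBV-075. SKM-1 had 26.0 and 55.3 FPKM in DMSO, 82.1 and 93.4 with ABBV-075 and 50.7 and 44.7 with ABBV-744, and Kasumi-1 had 17.8 and 16.7, 30.6 and 36.6, and 16.9 and 17.4. In both lines the ABBV-075 libraries lay above all others (log2 difference 1.18, adjusted p = 0.000585, and 0.92, adjusted p = 0.00452; each ± 0.24 SE). The SKM-1 value was 0.65 without DMSO replicate 1 and 1.71 without DMSO replicate 2, and called in both cases. In MV-4-11 the gene fell from 37.5 and 32.3 FPKM to 19.5 and 18.9 with ABBV-075 (-0.83, adjusted p = 0.0122), with 34.8 and 23.4 under ABBV-744. NCI-H1299 had 11.7 and 10.6 FPKM in DMSO, 7.19 and 7.12 with ABBV-075 and 9.48 and 8.68 with ABBV-744, and its difference of -0.57 with ABBV-075 was not called (adjusted p = 0.0641). The responses differed among lines (F = 17.6, adjusted p = 0.000343). Without DMSO replicate 1 or either ABBV-075 replicate of MV-4-11 the call in that line was lost, at -0.72 to -0.85. ABBV-744 gave no call in any line, but SKM-1 reached one without DMSO replicate 2 (0.85), the library with the high mitochondrial share and the higher PMAIP1 value.

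BBC3, whose product PUMA binds all guardians, gave 1 weak call. In NCI-H1299 it stood at 3.70 and 2.88 FPKM in DMSO and 6.73 and 4.98 with ABBV-075, a log2 difference of 0.67 ± 0.27 (adjusted p = 0.0496), and 3.74 and 3.94 with ABBV-744. That call was lost with a pseudocount of 0.1, without a filter and without any one of the NCI-H1299 libraries (0.48 to 0.86). In SKM-1 the values were 4.92 and 3.90 in DMSO, 10.3 and 5.01 with ABBV-075 and 4.50 and 8.52 with ABBV-744, so the replicates of each compound lay far apart (0.61, adjusted p = 0.0577, with ABBV-075). In MV-4-11 it was at 18.1 and 22.1 FPKM in DMSO and 18.2 and 18.0 with ABBV-075, a difference of -0.14 (95% interval -0.71 to 0.42).

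BID, which caspase-8 cleaves to link death receptors to mitochondria, was the member that fell most widely. It fell from 22.2 and 18.6 FPKM to 7.01 and 7.07 in Kasumi-1 (-1.41, adjusted p = 9.1e-07), from 16.5 and 14.3 to 6.16 and 7.31 in NCI-H1299 (-1.09, adjusted p = 2.07e-05) and from 49.2 and 33.4 to 26.0 and 23.7 in SKM-1 (-0.69, adjusted p = 0.000797), each ± 0.15 (SE) with ABBV-075. The groups did not overlap in any of these lines, and the SKM-1 call was lost when that line was fitted alone and stood at -0.41 without DMSO replicate 1. MV-4-11 had 37.7 and 38.4 FPKM in DMSO and 31.01 and 31.3 with ABBV-075 (-0.28, adjusted p = 0.14). With ABBV-744 BID fell in Kasumi-1, to 12.6 and 12.4 FPKM (-0.66, adjusted p = 0.0041), a call lost without DMSO replicate 1 (-0.54). In SKM-1 it stood at 51.6 and 52.4 FPKM with ABBV-744, above both DMSO libraries but not called (0.35, adjusted p = 0.0885). Without DMSO replicate 1 that difference was called (0.62).

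BAD, which survival kinases phosphorylate and 14-3-3 proteins then sequester, fell with ABBV-075 in NCI-H1299, from 31.7 and 26.9 FPKM to 11.6 and 9.35 (-1.40 ± 0.23 SE, adjusted p = 0.000147), with 23.02 and 20.4 under ABBV-744. In Kasumi-1 it was at 15.2 and 12.6 FPKM in DMSO and 11.1 and 5.95 with ABBV-075 (-0.69, adjusted p = 0.0187). The ABBV-075 libraries of Kasumi-1 differed from each other, and without replicate 2 of that group the value was -0.29 and not called. SKM-1 (0.26) and MV-4-11 (-0.32) gave no call, and neither did any line with ABBV-744.

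BIK also changed direction between lines. It fell with ABBV-075 in Kasumi-1, from 15.5 and 11.3 FPKM to 5.52 and 2.59 (-1.56, adjusted p = 5.88e-05), and in MV-4-11, from 11.7 and 12.9 to 5.41 and 6.85 (-0.91, adjusted p = 0.00718), and it rose in NCI-H1299, from 0.728 and 1.17 to 2.68 and 2.82 (0.95, adjusted p = 0.00469), each ± 0.24 (SE). The groups did not overlap in these lines. SKM-1 went from 3.18 and 2.38 FPKM to 1.70 and 1.56 without a call (-0.51, adjusted p = 0.0806). The MV-4-11 call was lost without DMSO replicate 2 (-0.84) or ABBV-075 replicate 1 (-0.76), and the NCI-H1299 call without DMSO replicate 1 (0.79). With ABBV-744 no line gave a call. MV-4-11 came nearest, at 7.17 and 7.67 FPKM, below both DMSO libraries (-0.66, adjusted p = 0.103).

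HRK, a BH3-only gene best known from neurons, was low where it was found. In SKM-1 it was at 1.84 and 1.76 FPKM in DMSO, 0.217 and 0.350 with ABBV-075 (-1.13) and 0.682 and 0.761 with ABBV-744 (-0.70), given as a description because only the DMSO libraries passed the filter. In NCI-H1299 it fell from 2.17 and 1.79 FPKM to 0.609 and 0.717 with ABBV-075 (-0.84, adjusted p = 2.18e-07) and 1.28 and 1.58 with ABBV-744 (-0.30, adjusted p = 0.0267), each ± 0.07 (SE). In NCI-H1299 the 3 treatments did not overlap, with DMSO highest and ABBV-075 lowest. SKM-1 had the same order, but there the filter had set DMSO as the highest. The NCI-H1299 call with ABBV-744 was lost with a pseudocount of 0.1 and without DMSO replicate 1 or ABBV-744 replicate 1 (-0.21 each). At these levels the log2 scale with a pseudocount of 1 understates the change.

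The effectors split by line. BAX rose in SKM-1, from 39.3 and 31.6 FPKM to 73.1 and 68.1 with ABBV-075 (0.98 ± 0.20 SE, adjusted p = 0.00057) and to 49.8 and 69.1 with ABBV-744 (0.72, adjusted p = 0.0152). The ABBV-744 call was lost without DMSO replicate 2 (0.57) or ABBV-744 replicate 2 (0.49). With ABBV-075 it fell in NCI-H1299, from 69.4 and 67.5 FPKM to 43.6 and 41.6 (-0.67, adjusted p = 0.0123), and in Kasumi-1, from 68.3 and 70.2 to 59.8 and 37.3 (-0.54, adjusted p = 0.0309). The Kasumi-1 value was -0.21 and not called without ABBV-075 replicate 2. That call was also lost without DMSO replicate 1 (-0.56) or DMSO replicate 2 (-0.52). It was lost too under median ratio scaling (-0.45), without a filter and when the line was fitted alone. The NCI-H1299 call was lost without DMSO replicate 1 (-0.65) or ABBV-075 replicate 2 (-0.64). In MV-4-11 BAX stayed at 292 to 328 FPKM in all 6 libraries, with a difference of -0.03 for ABBV-075 (95% interval -0.46 to 0.39).

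BAK1, the second effector, was called once. In Kasumi-1 it went from 18.95 and 17.0 FPKM to 14.1 and 8.89 with ABBV-075 (-0.63 ± 0.21 SE, adjusted p = 0.0176), and without ABBV-075 replicate 2 the value was -0.33 and not called. Replicate 2 of the Kasumi-1 ABBV-075 group was thus the lower library for BAD, BIK, BAX and BAK1 alike, and its mitochondrial share was 16.3% against 14.6% in replicate 1. Whether that share had a part in these values was not tested. In the other lines BAK1 gave 0.21, 0.39 and -0.32 with ABBV-075 in SKM-1, MV-4-11 and NCI-H1299, none of them called. The SKM-1 DMSO libraries were 16.5 and 9.52 FPKM, and without replicate 1 the line's differences were called with ABBV-075 (0.58) and with ABBV-744 (0.75).

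Set against each other, ABBV-744 at 200 nM left BCL2L11 lower than ABBV-075 at 100 nM in all 4 lines, by log2 differences of -1.14, -0.75, -0.76 and -0.84 in SKM-1, MV-4-11, Kasumi-1 and NCI-H1299. BMF was lower with ABBV-744 in SKM-1 (-2.45), Kasumi-1 (-0.61) and NCI-H1299 (-0.69), and in MV-4-11 the interval was -0.42 to 0.14. In Kasumi-1 the BMF value was -0.37 without ABBV-075 replicate 1, and its call was lost when the line was fitted alone. PMAIP1 was lower with ABBV-744 in SKM-1 (-0.87) and Kasumi-1 (-0.93). The SKM-1 call was lost when the line was fitted alone or without replicate 2 of either compound (-0.77 and -0.78), and the Kasumi-1 call without ABBV-075 replicate 2 (-0.80). BID was higher with ABBV-744 in SKM-1 (1.04), Kasumi-1 (0.74) and NCI-H1299 (0.75), and BAD in Kasumi-1 (0.92) and NCI-H1299 (0.99). The BAD call in Kasumi-1 was lost without replicate 2 of ABBV-075 (0.52) or of ABBV-744 (0.84). BIK was higher with ABBV-744 in Kasumi-1 (1.16) and lower in NCI-H1299 (-1.15), the line where ABBV-075 had raised it. The Kasumi-1 value was 0.73 without ABBV-075 replicate 2.

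In SKM-1 the compounds thus differed in 5 of 10 members, 2 higher (BID and HRK) and 3 lower with ABBV-744, beside 22.7% and 20.97% of all genes. HRK was tested there through its DMSO libraries alone, at means of 0.721 FPKM with ABBV-744 and 0.283 with ABBV-075. Its call was lost when the line was fitted alone and is no result. In MV-4-11 the count was 0 higher (1 at an unadjusted p under 0.05) and 1 lower of 9 in limma, beside 12.5% and 9.44%. Kasumi-1 gave 3 higher and 3 lower of 8, beside 21.2% and 16.5%, and NCI-H1299 gave 3 higher and 3 lower of 10, beside 18.6% and 15.98%. BAX and BAK1 were not called between the compounds in any line. For BAX in SKM-1, the line where both compounds raised it, the difference was -0.26 with a 95% interval of -0.69 to 0.17, which does not show equal action.

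The responses were then compared among lines. With ABBV-075 the response of 7 of the 8 members tested in all lines differed, beside 50.4% of 10180 genes, and BCL2L11 was the member not called. With ABBV-744 the responses of BMF (F = 21.7, adjusted p = 0.00164) and BID (F = 8.25, adjusted p = 0.0361) differed, 2 of 8 beside 6.50%. BCL2L11 stood near the threshold with ABBV-744 (F = 6.34, adjusted p = 0.0643). It was called under 4 of the other settings (adjusted p from 0.026 to 0.0413), among which the fit of each line alone gives no such test. The pair SKM-1 and MV-4-11 was called for BCL2L11 (-0.49, adjusted p = 0.0482). The BMF response to ABBV-075 was larger by 3.59 ± 0.19 (SE) on the log2 scale in SKM-1 than in MV-4-11, and that of MV-4-11 minus Kasumi-1 was -1.63 and minus NCI-H1299 -0.90. The BAX response of SKM-1 exceeded that of NCI-H1299 by 1.66 ± 0.28 and that of Kasumi-1 by 1.52. The BIK response of Kasumi-1 minus that of NCI-H1299 was -2.51 ± 0.35.

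The summed level of the family went up in SKM-1 and down in NCI-H1299 with ABBV-075. In SKM-1 the summed FPKM of the 10 genes was 162 and 155 in DMSO, 308 and 295 with ABBV-075 and 202 and 229 with ABBV-744. BMF went from 2.7% of that sum in DMSO to 22.7% with ABBV-075, while BID went from 26.0% to 8.2%. In NCI-H1299 the sum went from 164 and 153 FPKM in DMSO to 108 and 101 with ABBV-075 and 130 and 129 with ABBV-744. In MV-4-11 the sum lay between 436 and 498 FPKM in all 6 libraries, with BAX at 65.3% to 67.9% of it. In Kasumi-1 it lay between 122 and 167 FPKM, and BCL2L11 went from 4.1% to 11.7% of it with ABBV-075. Sums of FPKM are descriptions and were not tested.

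The guardians, the proteins that members bind, moved beside them. Of 6 guardian genes, BCL2L1 fell and MCL1 rose with ABBV-075 in all 4 lines, and BCL2 fell in the 3 AML lines. BCL2 fell there by 3.38, 1.98 and 1.61 on the log2 scale, from DMSO means of 26.0, 38.1 and 9.77 FPKM. In NCI-H1299 the difference of BCL2 was -0.69 from a DMSO mean of 1.31 FPKM, but the gene passed the filter through its DMSO libraries alone, so a lower value was bound to appear. MCL1 rose by 1.24, 0.82, 1.05 and 0.53 in SKM-1, MV-4-11, Kasumi-1 and NCI-H1299, and BCL2L1 fell most in Kasumi-1 (-1.78). BCL2L10, tested in MV-4-11 alone, fell there (-1.09), and BCL2L2 was not called in any line. With ABBV-744 BCL2 fell in the 3 AML lines (-1.62, -1.05 and -0.66) and MCL1 rose in SKM-1 (0.65). BCL2A1 in SKM-1 had means of 0.759 FPKM in DMSO, 0.193 with ABBV-075 and 4.25 with ABBV-744. It passed the filter through its ABBV-744 libraries, so its higher value there (1.56) was bound to appear and is no result. Its lower value with ABBV-075 (-0.55) compares 2 means below 1 FPKM and is given as a description. The list median with ABBV-075 was -0.50, -0.91, -0.68 and -0.31 in the 4 lines, beside all-gene medians of 0.05, -0.01, -0.09 and -0.06.

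The ratio of BCL2L11 to BCL2 in FPKM, which compares the levels of both genes per length, went from 0.254 and 0.240 in SKM-1 DMSO to 8.62 and 10.9 with ABBV-075 and 0.817 and 0.836 with ABBV-744. In MV-4-11 it went from 0.155 and 0.174 to 1.80 and 1.84 with ABBV-075 and 0.494 and 0.545 with ABBV-744. In Kasumi-1 it went from 0.686 and 0.676 to 7.23 and 5.65, and to 1.57 and 1.55 with ABBV-744. The 3 treatments did not overlap in any of these lines. They did not overlap in NCI-H1299 either, where BCL2 was at most 1.49 FPKM. There BCL2 passed the filter through its DMSO libraries alone, which favours a higher ratio with the compounds. The NCI-H1299 ratios are therefore a description and no result. In SKM-1 with ABBV-744 BCL2L11 itself was not called, and its levels of 6.50 and 6.39 FPKM lay between the DMSO values of 6.61 and 6.21. The ratio of BMF to BCL2 reached 43.1 in both SKM-1 libraries with ABBV-075, from 0.179 and 0.156 in DMSO. In MV-4-11, where BMF itself was not called, that ratio went from 0.484 and 0.598 to 2.44 and 2.55. These ratios concern RNA, and protein was not measured here.

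**Figure D4:**
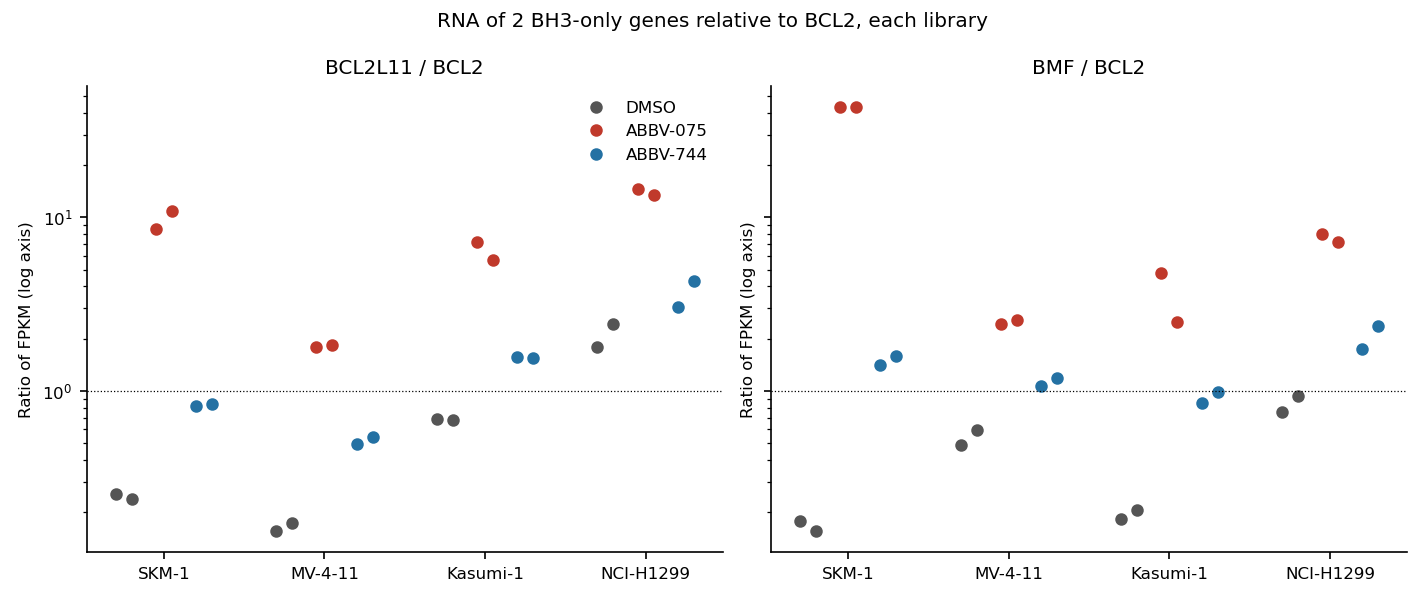
Ratio of FPKM of BCL2L11 (left) and BMF (right) to BCL2 on a log axis (vertical) in each library, by line (horizontal) and treatment (colour); the dotted line marks equal FPKM. In each line the DMSO points lie lowest and the ABBV-075 points highest, up to 43.1 for BMF in SKM-1. In NCI-H1299 BCL2 passed the filter through its DMSO libraries alone, which favours that order.

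Other relatives and genes of the machinery downstream moved in both directions. Of 9 other relatives, BNIP3L, a mitophagy receptor, rose with ABBV-075 in all 4 lines (1.06, 1.02, 1.56 and 1.14 on the log2 scale), as did MOAP1, which binds BAX (1.30, 0.68, 0.68 and 1.10). BNIP1, a SNARE protein of the endoplasmic reticulum, fell in all 4 (-0.61, -1.06, -1.43 and -1.20), BOK fell in NCI-H1299 (-0.74), and BNIP2 was not called. With ABBV-744 BNIP1 fell in MV-4-11 (-0.63) and Kasumi-1 (-0.86), BNIP3L rose in Kasumi-1 (0.66) and BNIP3 fell in SKM-1 (-0.42). Of 12 genes of the mitochondrial death machinery, 4, 4, 5 and 2 rose with ABBV-075 in SKM-1, MV-4-11, Kasumi-1 and NCI-H1299, and at most 2 fell in a line. As shares of 12 tested genes these rises stand beside 32.03%, 20.3%, 24.7% and 20.6% of all genes. The falls stand beside 29.2%, 22.1%, 32.6% and 26.5% of all genes called lower. CASP9, the initiator caspase of this pathway, rose in all 4 lines (1.86, 0.77, 0.83 and 0.76). APAF1, which assembles with CASP9, rose in the AML lines by up to 1.03. CYCS, which encodes cytochrome c, fell in SKM-1 (-1.71). XIAP and VDAC2 were not called in any line. With ABBV-744 CASP9 rose in SKM-1 (0.63) and AIFM1 fell in Kasumi-1 (-0.66). The machinery list's median with ABBV-075 was 0.27, 0.13, 0.13 and -0.11 in the 4 lines, beside 0.05, -0.01, -0.09 and -0.06 for all genes.

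Among 10 transcription factors known to act on member genes, the medians with ABBV-075 were -0.68, -0.92, -0.05 and -0.31, beside the same all-gene medians. MYC fell in the 3 AML lines (-5.80, -1.15 and -3.06), and E2F1, which is known to induce several BH3-only genes, fell in all 4 lines (-1.78, -1.71, -1.15 and -1.61). The stress factors DDIT3 and ATF3 rose in SKM-1 (0.63 and 0.89) and Kasumi-1 (1.07 and 1.71) and fell in MV-4-11 (-1.76 and -0.37), and ATF3 rose in NCI-H1299 (0.95). FOXO3 rose in all 4 (0.95, 0.38, 0.88 and 1.02) and was named after its values were seen. With ABBV-744 MYC fell in SKM-1 (-0.85) and Kasumi-1 (-1.02), DDIT3 rose in Kasumi-1 (1.03) and ATF4 fell in SKM-1 (-0.45).

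Of 15 genes whose products hold, modify or cleave member proteins, 14 were tested. With ABBV-075, 7, 5, 4 and 3 rose in the same order of lines, beside the same all-gene shares of 32.03%, 20.3%, 24.7% and 20.6%. At most 1 fell in a line, beside 29.2%, 22.1%, 32.6% and 26.5% of all genes called lower. The list's medians were 0.35, 0.32, 0.12 and 0.20, beside 0.05, -0.01, -0.09 and -0.06 for all genes. MAPK8, the kinase JNK1, rose in the 3 AML lines (1.21, 1.06 and 1.07). DYNLL2, the dynein light chain that binds BMF, rose in the same lines (0.66, 0.88 and 0.91), and DYNLL1, which binds BIM, rose in SKM-1 (0.87) and MV-4-11 (0.69). YWHAZ, a 14-3-3 protein, rose in all 4 (0.69, 0.55, 0.85 and 0.53), while YWHAB and YWHAE were not called. With ABBV-744 RPS6KA1 (0.85), MAPK8 (0.65) and DYNLL1 (0.40) rose in SKM-1 and PIM1 fell in Kasumi-1 (-0.51).

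Finally, the genes whose pattern was most like each member were found from the 12 group means after the mean of each line was removed, over 10180 genes. Pearson's r is a description here, since the 12 points share libraries and DMSO groups and the best of many genes is shown. BCL2L11 was most like PCYOX1, SLC6A8 and UBE2H (r of 0.99 each), and BMF most like TSPYL4, OSBPL2 and ZBED5 (0.99 to 1.0). PMAIP1 was most like ANXA1 (0.96), BID like TRIM27 (0.99), BAD like NUDT6 (0.97), BIK like CREB3L2 (0.95), BAX like MANBAL (0.98) and BAK1 like TATDN2 (0.97). Among the members themselves, BCL2L11 ran with BMF (0.76) and against BID (-0.87), and BAD ran with BAX (0.75) and with BID (0.73).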

How the data were processed

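Poly-A RNA was sequenced in 24 libraries, and the values analysed are FPKM as deposited by the authors, that is fragments per kilobase of transcript scaled to library size. The submitters' processing notes name DESeq2, without version or role. For the aligner, quantifier, build, annotation and strand setting, no source used here gives a name. Replicates are numbered in accession order. Differences were computed on log2(FPKM + 1). A gene entered a comparison when 2 or more libraries of each line involved reached 1 FPKM. A single limma 3.58.1 model of 12 group means (R 4.3.3, statmod 1.5.0, eBayes with trend and robust, 12 residual degrees of freedom) gave two-sided tests with Benjamini-Hochberg adjustment over all genes of a comparison, and moderated F tests compared responses among lines. For 2 libraries against 2 the smallest exact permutation p is 0.333, so a call draws on spread pooled over groups and genes. The fit was tested on simulated data. Members, gene lists, naming rules and tests were chosen with earlier results of these data known. Every member is named. From a list, at most 4 called genes (those with the largest change) and at most 2 never called are named for each compound. Some genes of these lists are not reported here. BH3 stretches were found by translating GENCODE 29 transcripts, and genes were matched by symbol. The 7 other settings and 24 fits leaving out 1 library were run, in which a library left alone in its group was assumed to vary like the others. Matplotlib 3.10.9 under Python 3.11.15 drew the plots.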

Additional observations from a re-analysis of the deposited data

Results flagged for a closer look

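The response to ABBV-075 differed among the 4 lines in 7 members, by a moderated F test of the differences themselves. The adjusted p was 2.84e-08 for BMF, 0.000343 for PMAIP1, 0.00232 for BID, 0.00503 for BAD, 0.000253 for BIK, 0.000924 for BAX and 0.0297 for BAK1. PMAIP1, BIK and BAX were called in opposite directions in different lines, whereas BMF, BID and BAD were called in 1 direction where they were called. The BAK1 result was lost when any one of 5 libraries was left out. The response to ABBV-744 differed among lines in BMF (adjusted p = 0.00164) and BID (adjusted p = 0.0361). The BMF result held under the 29 alternatives that tested it. With the filter at 5 FPKM and in the fit of each line alone it was not tested. The BID result was lost without any one of 15 libraries.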

How the results depend on the processing

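No member reversed its direction after a call under any alternative. Leaving out 1 library changed 131 of 4288 values of a member in a comparison across the threshold (87 lost, 44 gained), and the 7 other settings changed 48 of 1152 (24 lost, 24 gained). Counts of members called moved by over 1.5 times as follows. With each line fitted alone, which leaves fewer libraries to estimate the spread, the counts with ABBV-744 against DMSO were 1 in SKM-1, 2 in MV-4-11, 1 in Kasumi-1 and 4 in NCI-H1299, those with ABBV-075 were 5 in MV-4-11 and 5 in Kasumi-1, and between the compounds 3 in SKM-1 and 2 in MV-4-11. With a filter at 5 FPKM, which removes low members, NCI-H1299 gave 4 with ABBV-075, 0 with ABBV-744 (limma) and 3 between compounds, untreated MV-4-11 against NCI-H1299 gave 5, and 1 member differed among lines with ABBV-744. Without a filter that last count was 4 (the cause was not tested). The NCI-H1299 count with ABBV-744 was 0 also with a pseudocount of 0.1, without mitochondrial genes and with plain eBayes, where HRK was lost. Leaving out 1 library gave 1 to 4 in MV-4-11 with ABBV-075, 1 to 2 with ABBV-744 and 1 to 2 between compounds, 5 to 8 in Kasumi-1 with ABBV-075, 5 to 9 in NCI-H1299 with ABBV-075 and 0 to 1 with ABBV-744, and 1 to 5 members differing among lines with ABBV-744. Leaving out mitochondrial genes shifted the median of all genes by -0.16 in SKM-1 with ABBV-744, by 0.10 in NCI-H1299 with ABBV-075 and by -0.11 between compounds in Kasumi-1. No paired analysis was possible because the labels give no replicate numbers. Depth is unknown, so differences below 1 FPKM, as for BBC3 in Kasumi-1, could not be weighed.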
